A study of Mus musculus with 14 samples.

Results

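AP-1 is a family of dimeric transcription factors built from Fos, Jun and related proteins, and the data below follow its Fos genes (Fos, Fosb, Fosl1, Fosl2), its Jun genes (Jun, Junb, Jund) and Atf3. Members were chosen by symbol alone: every probe set annotated to one of these 8 genes was taken, which gave 12 probe sets among 12422 that are not array controls. A probe set is a group of short probes on an Affymetrix array that reads 1 transcript. Of the 12 probe sets, 9 were bright enough to be tested, and those not tested were Fos 161716_at, Fosl1 99835_at and Atf3 161645_r_at, each of which lay above its array's 40th percentile on 0 of 14 arrays.

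RNA labelled as mouse lymph node was hybridised to 14 arrays, 1 RNA sample on each. The KO groups, Atm-/-, comprised 3 untreated samples, 2 samples from 30 min after ionizing radiation (IR) and 2 samples from 120 min after it. The WT groups, Atm+/+, had the same numbers at the same times. Atm encodes the kinase that is switched on by DNA double-strand breaks. The labels give no strain, age, sex, radiation dose, design of the disrupted allele or cells that carry it, so the animals are described here only by genotype and time. Nothing in the labels states that the replicates A, B and C came from separate animals, so that p-values measure the spread between these samples, which may be technical.

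Fos proteins do not pair with themselves and bind DNA as heterodimers with Jun proteins, whereas Jun proteins can also form homodimers. The dimers recognise the AP-1 site, and dimers that contain an ATF protein favour the related cyclic AMP response element (CRE). Fos, Junb and Atf3 are classic immediate-early genes: their transcripts appear within minutes of a stimulus from transcription factors that are already present, and the Fos transcript is short-lived. In lymphocytes AP-1 acts with NFAT on cytokine genes after antigen receptor stimulation, and ionizing radiation and other genotoxic stresses reach it through the MAP kinases. Atf3 belongs to the ATF/CREB family, is induced by many stresses and often represses its targets.

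The promoter sequences of Fos, Jun, Junb and Atf3 are shown because these genes had their highest values in irradiated WT. They are the 250 bases before the transcription start in mouse build GRCm38.p6, taken from RefSeq, which listed 7 of the 8 genes, and each is written 5′ to 3′ on the gene's own strand. Capitals mark matches to the motifs searched, on either strand. Fos lies at chr12:85473640-85473889 on the plus strand, Jun at chr4:95052223-95052472 on the minus strand, Junb at chr8:84978749-84978998 on the minus strand and Atf3 at chr1:191183334-191183583 on the minus strand. Fosb is shown beside them and lies at chr7:19310046-19310295 on the minus strand. Of the genes shown, Fos and Junb were called in the fit described below, and Jun, Atf3 and Fosb were not.
Fos: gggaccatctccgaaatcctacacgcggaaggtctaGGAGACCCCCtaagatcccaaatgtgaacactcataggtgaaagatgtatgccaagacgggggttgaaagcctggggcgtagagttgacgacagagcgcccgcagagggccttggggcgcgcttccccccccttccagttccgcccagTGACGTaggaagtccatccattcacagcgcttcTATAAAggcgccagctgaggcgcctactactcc
Jun: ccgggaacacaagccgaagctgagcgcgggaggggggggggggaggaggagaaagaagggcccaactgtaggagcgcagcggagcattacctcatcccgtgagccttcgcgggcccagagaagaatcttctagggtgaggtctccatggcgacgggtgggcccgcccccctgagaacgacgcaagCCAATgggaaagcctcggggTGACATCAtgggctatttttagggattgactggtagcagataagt
Junb: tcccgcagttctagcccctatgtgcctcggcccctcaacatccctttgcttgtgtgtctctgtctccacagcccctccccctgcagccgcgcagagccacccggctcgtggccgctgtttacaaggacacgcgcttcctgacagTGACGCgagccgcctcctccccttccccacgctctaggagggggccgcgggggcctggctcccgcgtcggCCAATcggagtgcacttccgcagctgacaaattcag
Atf3: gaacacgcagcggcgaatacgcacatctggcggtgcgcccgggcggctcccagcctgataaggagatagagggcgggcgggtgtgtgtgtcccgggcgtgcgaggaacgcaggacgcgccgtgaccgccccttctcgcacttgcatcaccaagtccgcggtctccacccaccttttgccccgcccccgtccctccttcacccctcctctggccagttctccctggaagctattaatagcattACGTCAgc
Fosb: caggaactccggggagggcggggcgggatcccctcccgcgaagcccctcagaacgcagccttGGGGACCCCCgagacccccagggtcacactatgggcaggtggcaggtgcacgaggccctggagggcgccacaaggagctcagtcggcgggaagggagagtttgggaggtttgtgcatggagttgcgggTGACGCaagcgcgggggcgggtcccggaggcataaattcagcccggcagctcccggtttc

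The CRE core TGACGT stood 66 bases before the Fos start and, on the opposite strand, 8 bases before the Atf3 start, where it reads ACGTCA. It occurred in 6.47% of 32851 promoter windows of the same length. The 8-base TGACNTCA, which overlaps the CRE core where N is G, matched in Jun as TGACATCA 45 bases before the start and in 7.49% of all windows. TGACGC, a near match to the CRE core, stood 106 bases before the Junb start and 60 bases before the Fosb start, against 6.12% of all windows. A TATA box, TATAAA, was found in Fos (12.4% of all windows), and CCAAT in Jun and Junb (33.8%). The NF-kB site matched in Fos, Fosb and Fosl2, against 3.9% of all windows. In the windows of the 7 members there was no match to the AP-1 site TGANTCA (6.75% of all windows) or the serum response CArG box (1.47%), and Jund held none of the motifs. The motifs were chosen with these sequences in view. A match describes letters only, and the absence of one speaks of these windows and not of the factor.

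**Figure D1:**
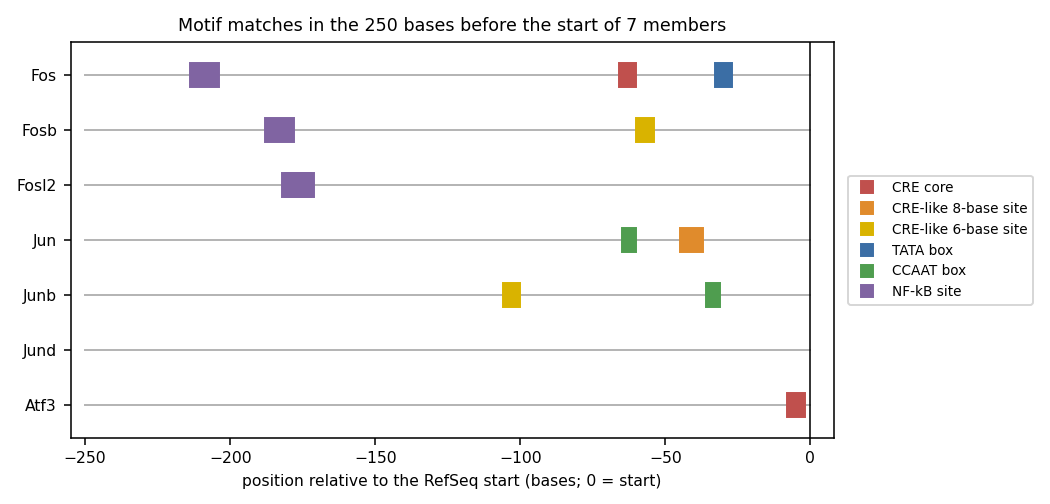
Positions of the motif matches, in bases before the RefSeq start at 0, in 1 row for each of the 7 members with a promoter entry. Coloured blocks are matches on either strand. Fos and Atf3 each carry a CRE core, and Jund carries no match.

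Before the members' values, 4 properties of the arrays bear on how they read. No marker gene of the 6 cell type and tissue lists was at 0 on any array. Genes of the salivary gland reached high values on all arrays (the summed level of 5 of 9 listed genes ranged from 32308 to 56477), although the samples are labelled lymph node. Atm itself had 1 probe set, which read 7.5 to 44.0 on the 7 KO arrays and 5.5 to 55.9 on the 7 WT arrays. No label says whether it lies within the disrupted stretch, so this reading checks nothing about the labels. The ratio of the 3′ to the 5′ Gapdh control probe sets, a sign of RNA integrity, lay between 0.723 and 1.07. The same ratio for beta-actin lay between 1.238 and 1.580. In whole-tissue RNA, fewer cells of a type and less RNA per cell cannot be told apart.

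Fos, whose product is the prototype Fos protein, rose 30 min after IR in WT. On probe set 160901_at the deposited intensities in KO were 44.1, 70.9 and 32.8 untreated, 66.5 and 24.6 at 30 min, and 49.6 and 40.3 after 120 min. In WT they were 49.0, 46.1 and 42.1 untreated, 416.1 and 416.0 at 30 min, and 58.7 and 81.7 after 120 min. Both WT arrays at 30 min stood far above every other array of the series, and the WT arrays at 120 min lay slightly above the untreated ones with no overlap. The 3 KO groups overlapped one another and the untreated WT group. The mean intensity in WT at 30 min was 416.1 ± 0.1 (SD, n = 2), against 45.7 ± 3.5 (SD, n = 3) in untreated WT, a ratio of 9.1. In the order of the 6 group means, WT at 30 min was followed by WT at 120 min, untreated KO, untreated WT, KO at 30 min and KO at 120 min, and only the first was clear of its neighbour.

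**Figure D2:**
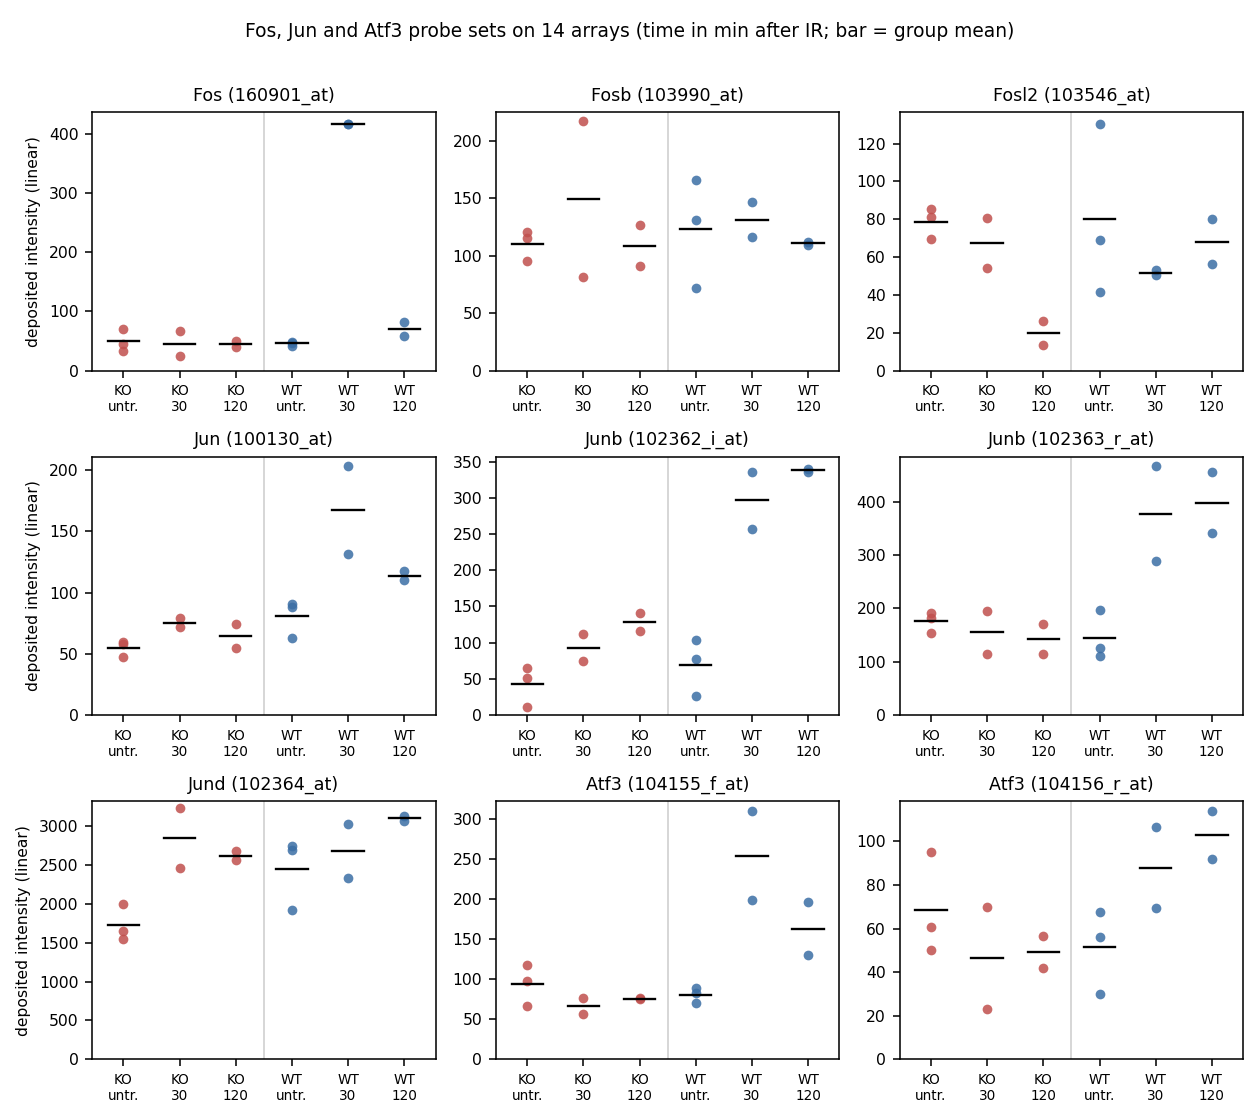
Deposited intensity (linear, y axis) of the 9 tested probe sets on each array, with KO groups in red on the left and WT groups in blue on the right, untreated and at 30 and 120 min after IR. Bars are group means of 3 untreated or 2 irradiated arrays. Fos (160901_at) is near 416 in both WT arrays at 30 min and at most 81.7 on the other arrays.

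Changes were tested on log2(intensity + 32) with limma over all 8916 tested probe sets, and a change was called when its Benjamini-Hochberg adjusted p was under 0.05. The offset of 32 makes a log2 change smaller than the ratio of intensities, most of all at low levels. The Fos change in WT at 30 min was 2.52 ± 0.21 (SE; 95% interval 2.07 to 2.98, adjusted p = 9.51e-05). It was the 1 member called of 9 tested, where 0.101% of all tested probe sets were called (9 of 8916). At 120 min Fos fell relative to 30 min in WT, with a log2 change of -2.08 ± 0.23 (adjusted p = 0.00622), and no other member was called there (0.123% of all tested probe sets). That call was lost when any single array of these WT groups was left out, at adjusted p = 0.0638 without 30 min A, 0.139 without 30 min B, 0.116 without 120 min A and 0.0873 without 120 min B, and when only these groups were fitted (0.0551). The change itself stayed between -1.97 and -2.17 without any of these arrays. Leaving out 1 of 2 irradiated arrays leaves a lone array, which is assumed to vary like the other groups, here and in the results below. Relative to untreated WT, the change at 120 min was 0.45 ± 0.21 (adjusted p = 0.587).

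In WT at 30 min the marker sums of B cells, T cells, node stroma and endothelium, macrophages, muscle and salivary gland all overlapped those of untreated WT. For example the B cell sum, from 7 of 8 listed genes, was 1355 to 1684 at 30 min, against 1407 to 1906 untreated. The macrophage sum, from 7 of 7 genes, was 1634 to 1836 at 30 min, against 1501 to 1783 untreated. The 3′ to 5′ Gapdh ratio was 0.851 and 0.890 at 30 min, against 0.958, 0.902 and 1.007 untreated, without overlap. The beta-actin ratio was 1.334 and 1.428 at 30 min, against 1.437, 1.364 and 1.580 untreated, and overlapped. The part of RNA integrity in the Fos result was not tested.

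The second Fos probe set, 161716_at, stayed near the bottom of the intensity range. It read 21.6 and 10.6 in WT at 30 min, against 5.3, 7.0 and 28.9 in untreated WT, so the groups overlapped. Its median rank over the 14 arrays was the 15.2 percentile of the array, against the 40.4 percentile for 160901_at, and it was not tested. The Fos results rest on 160901_at, since 161716_at was too dim to bear on them.

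The other Fos genes gave no call in any of the 11 comparisons. Fosb, which encodes a Fos protein known from long-lasting responses in neurons, read between 72.1 and 217.7 over all arrays, and all 6 of its groups overlapped their neighbours in the order of means. Its log2 change in WT at 30 min was 0.14 (95% interval -0.52 to 0.79, limma adjusted p = 0.994). Fosl1, which encodes Fra-1, read between 3.7 and 21.6 and was not tested.

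Fosl2 encodes Fra-2, a Fos protein without the strong transactivation domain of Fos itself. Its intensities in KO were 81, 85.3 and 69.7 untreated, 80.8 and 54.4 at 30 min, and 13.5 and 26.2 after 120 min. In WT they were 68.9, 130.6 and 41.4 untreated, 50.3 and 53.1 at 30 min, and 80.3 and 56.1 after 120 min. Both KO arrays at 120 min lay below every other array. The mean intensity in KO at 120 min was 0.252 times that of untreated KO, and the log2 change was -1.09 ± 0.27 (95% interval -1.66 to -0.51). This did not pass the limma test over all probe sets (adjusted p = 0.488). The summed muscle markers, from 10 of 10 genes, were 803 to 3063 in KO at 120 min, against 3231 to 9938 in untreated KO, also without overlap. The sums of B cells (1662 to 2280, against 1221 to 1569), macrophages (1757 to 2329, against 1675 to 1720) and salivary gland (50590 to 52299, against 32308 to 41896) stood above those of untreated KO. The T cell and stroma sums overlapped. In the limma fit on quantile normalized values the 5 salivary genes had a median log2 change of -0.001. The Gapdh ratio was 0.857 and 0.777 in KO at 120 min, against 0.867 to 0.976 in untreated KO. The beta-actin ratio overlapped, at 1.345 and 1.354, against 1.244 to 1.422. The part of these shifts in the Fosl2, Junb and Jund values of KO at 120 min was not tested.

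Among the Jun genes, Junb was called higher in WT at 120 min on 1 of its 2 probe sets. Its product, JunB, is a weaker activator than Jun and in many settings restrains it. On 102362_i_at the KO intensities were 50.7, 11.0 and 65.5 untreated, 111.3 and 74.9 at 30 min, and 141.0 and 115.8 after 120 min. Within KO each irradiated array lay above each untreated one. The WT intensities were 26.3, 103.2 and 77.2 untreated, 256.9 and 335.8 at 30 min, and 336.1 and 340.1 after 120 min. The 4 irradiated WT arrays all lay above the untreated ones and above every KO array. The ratio of means to untreated was 2.2 at 30 min and 3.03 at 120 min in KO, and 4.3 at 30 min and 4.91 at 120 min in WT.

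The Junb log2 change in WT at 120 min was 1.98 ± 0.38 (95% interval 1.15 to 2.81, limma adjusted p = 0.0428). It was the 1 member called of 9, where 0.505% of all tested probe sets were called (45 of 8916). At 30 min the change was 1.82 ± 0.38 and missed the threshold (adjusted p = 0.236). The change between 120 and 30 min was 0.16 (95% interval -0.75 to 1.06). The call at 120 min was lost in 11 of the 14 fits that left out 1 array, at adjusted p of 0.0507 to 0.381, and kept without untreated WT B, untreated KO B or untreated KO C. It was also lost under 5 of the 10 other settings.

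The other Junb probe set, 102363_r_at, gave 192.1, 153.2 and 181.8 in untreated KO, 195.7 and 115.1 at 30 min, and 114.5 and 171.0 after 120 min, all overlapping. It gave 197.3, 126.3 and 111.3 in untreated WT, 288.6 and 466.9 at 30 min, and 456.4 and 340.9 after 120 min. Both irradiated WT groups lay above the untreated WT arrays. The log2 change in WT was 1.19 ± 0.27 at 30 min (limma adjusted p = 0.327) and 1.27 ± 0.27 at 120 min (adjusted p = 0.0687). The changes of both probe sets thus had the same sign in WT. In KO they differed in sign, with 1.21 ± 0.38 at 120 min on 102362_i_at (adjusted p = 0.597) and -0.24 ± 0.27 on 102363_r_at (adjusted p = 0.888). By the array's naming, the _i set holds fewer probes than usual and the _r set was built with some design rules dropped.

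In WT at 120 min several marker sums stood apart from untreated WT without overlap. The B cell sum was 633 to 926 at 120 min, against 1407 to 1906 untreated, and the T cell sum, from 8 of 9 genes, was 352 to 449, against 685 to 738. The stroma and endothelium sum, from 6 of 8 genes, was 591 to 598 at 120 min, against 770 to 881. The macrophage sum was 2493 to 2575 at 120 min, against 1501 to 1783. In the limma fit the 7 macrophage genes had a median log2 change of 0.069, and 1 was called higher. Cd14 had the widest range of this list, 174.0 to 1232.2 over the arrays, so the sum does not speak for the whole list. The muscle sum was 3280 to 3414, against 1134 to 2815. The salivary sum, 38766 to 44681 at 120 min, overlapped that of untreated WT, 38154 to 41600. The Gapdh ratio was 0.891 and 0.723 at 120 min, below all untreated WT arrays. The beta-actin ratio overlapped, at 1.410 and 1.331, against 1.364 to 1.580. The part of these shifts in the Junb and Atf3 values at 120 min was not tested.

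Jun encodes the most potent activator of the Jun proteins and regulates its own promoter. Its intensities in KO were 47.0, 59.6 and 57.8 untreated, 79.0 and 71.5 at 30 min, and 74.5 and 54.5 after 120 min. In WT they were 63.1, 88.2 and 90.6 untreated, 131.2 and 203.0 at 30 min, and 117.3 and 110.2 after 120 min. WT at 30 min and WT at 120 min were the highest groups and each was clear of the next. In KO at 30 min the log2 change was 0.30 (limma adjusted p = 0.703). The ratio of means at 30 min was 2.07 in WT, but the log2 change of 0.82 ± 0.20 was not called (adjusted p = 0.467).

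Jund encodes a Jun protein that is expressed constitutively in many tissues. Its intensities in KO were 1650.6, 1546.0 and 2002.9 untreated, 3234.9 and 2463.9 at 30 min, and 2558.4 and 2677.6 after 120 min. In WT they were 2739.2, 2698.0 and 1925.7 untreated, 3025.9 and 2330.3 at 30 min, and 3063.1 and 3134.6 after 120 min. Every irradiated KO array lay above every untreated KO array, while each of the 6 groups overlapped its neighbour in the order of means. The salivary sum of deposited values was also higher in KO, at 43482 to 56477 at 30 min and 50590 to 52299 at 120 min, against 32308 to 41896 untreated. In the limma fit on quantile normalized values the 5 salivary genes had a median log2 change of -0.017 at 30 min and -0.001 at 120 min. The part of the salivary genes in the Jund values was not tested. The log2 change in KO at 30 min was 0.60 ± 0.23 (limma adjusted p = 0.532), and in WT it was 0.02 (95% interval -0.48 to 0.53, adjusted p = 0.999).

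Atf3 had its highest values in irradiated WT. On 104155_f_at the KO intensities were 67.1, 117.7 and 97.4 untreated, 56.3 and 77.2 at 30 min, and 76.5 and 75.1 after 120 min. In WT they were 70.4, 82.5 and 88.6 untreated, 199.4 and 309.5 at 30 min, and 195.8 and 129.8 after 120 min. All 4 irradiated WT arrays lay above all other arrays. The ratio of means in WT was 3.16 at 30 min and 2.02 at 120 min. The log2 change in KO at 30 min was -0.37 (limma adjusted p = 0.703). In WT it was 1.34 ± 0.25 at 30 min (limma adjusted p = 0.119) and 0.80 ± 0.25 at 120 min (adjusted p = 0.348), so neither was called.

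The remaining Atf3 probe sets gave no call. On 104156_r_at the KO intensities were 60.7, 50.1 and 95.2 untreated, 22.9 and 70.0 at 30 min, and 42.1 and 56.6 after 120 min, all overlapping. The WT intensities were 30.0, 67.7 and 56.3 untreated, 69.5 and 106.4 at 30 min, and 92.0 and 113.8 after 120 min, and the irradiated arrays again lay above the untreated ones. The change in WT was 0.58 ± 0.32 at 30 min and 0.79 ± 0.32 at 120 min (limma adjusted p = 0.982 and 0.55). The third, 161645_r_at, read 2.6 to 9.8 over all arrays and was not tested. The suffix of 104155_f_at marks a set whose probes may also match related sequences.

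**Figure D3:**
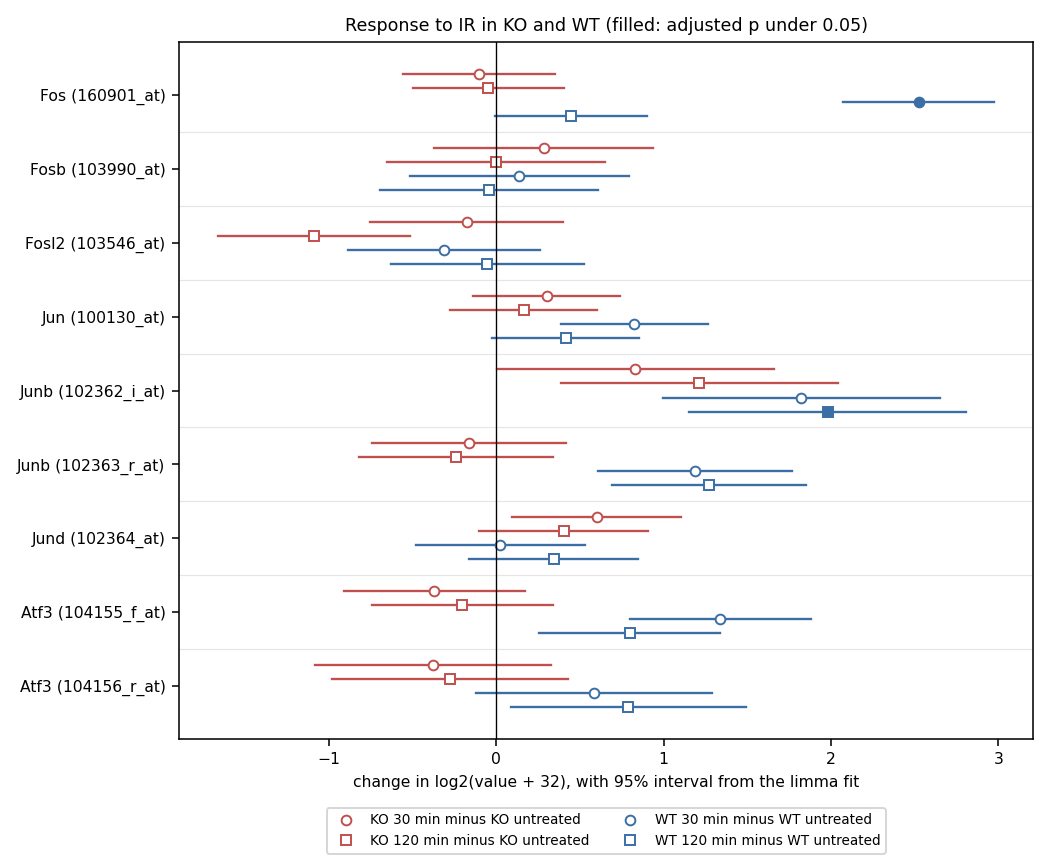
Change in log2(intensity + 32) after IR for the 9 tested probe sets, with 95% intervals from the limma fit, in KO (red) and WT (blue), at 30 min (circles) and 120 min (squares). Filled symbols passed an adjusted p of 0.05, which were Fos in WT at 30 min (2.52) and Junb 102362_i_at in WT at 120 min (1.98).

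Counted together, 6 of the 9 tested member probe sets had every WT array at 30 min above every untreated WT array, where 9.83% of all tested probe sets did so. These were the Fos, Jun, Junb and Atf3 probe sets. At 120 min the same 6 stood above untreated WT, against 13.3% of all tested probe sets. The median log2 change of the 9 was 0.82 at 30 min and 0.45 at 120 min, beside 0.00 and -0.01 over all tested probe sets. Both WT responses use the same untreated arrays.

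In KO no member passed the test at 30 min, at 120 min or between these times, and 0% of all tested probe sets were called in each of the 3 comparisons. By limma's unadjusted p under 0.05, 2, 2 and 1 of the 9 members and 750, 644 and 640 of the 8916 probe sets passed. The 0 over all probe sets depends on single arrays, although no member was called in any fit without 1 array. Without KO 30 min B, 240 of 8888 probe sets were called at 30 min and 110 between the times. Without KO 120 min B, 11 of 8881 were called at 120 min and 44 between the times. Without untreated KO B, 2 of 8851 were called at 120 min. Without either WT array of 120 min, 1 probe set was called at 30 min and 1 between the times. The Fos change in KO was -0.10 at 30 min (95% interval -0.56 to 0.35) and -0.05 at 120 min (95% interval -0.50 to 0.41). These intervals lie below the whole interval of the WT change at 30 min. Every KO array at 30 min lay above every untreated KO array for 3 of the 9 members, which were Jun, Junb 102362_i_at and Jund, against 11.1% of all tested probe sets. At 120 min this held for Junb 102362_i_at and Jund, which is 2 of 9, against 13% of all. The median change of the members in KO was -0.10 at 30 min and -0.05 at 120 min. In KO at 30 min some marker sums did not overlap those of untreated KO. The salivary sum was 43482 to 56477, against 32308 to 41896. In the limma fit on quantile normalized values its 5 genes had a median log2 change of -0.017. The stroma and endothelium sum was 687 to 758, against 897 to 1242, and the macrophage sum was 1587 to 1621, against 1675 to 1720. The part of these sums in the member values was not tested.

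Between the genotypes, Fos was the member called, and it was called at 30 min. By limma's unadjusted p under 0.05, 5 of the 9 members and 601 of the 8916 probe sets passed there. The mean Fos intensity was 45.5 ± 29.6 in KO at 30 min and 416.1 ± 0.1 in WT at 30 min (SD, n = 2 each), a ratio of 0.109. The log2 difference of KO minus WT was -2.60 ± 0.23 (95% interval -3.10 to -2.11, limma adjusted p = 0.000243), the 1 call among 9 members, where 0.101% of all tested probe sets were called. Fitted on these groups alone it did not pass (limma adjusted p = 0.116). Both KO arrays lay below both WT arrays for 5 of 9 members, which were Fos, Jun, both Junb probe sets and Atf3 104155_f_at, against 16.6% of all tested probe sets. Atf3 104155_f_at came nearest to the threshold among the others, at -1.56 ± 0.27 (adjusted p = 0.0732). Without KO 30 min B, which leaves 1 KO array, it passed at -1.82 (adjusted p = 0.0215), but in that fit 121 of 8888 probe sets were called, against 9 of 8916 with all arrays. Jun stood at -0.91 ± 0.22 (adjusted p = 0.351) and Junb at -1.42 ± 0.42 on 102362_i_at and -1.11 ± 0.29 on 102363_r_at (adjusted p = 0.629 and 0.457).

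At 30 min the B cell, T cell, stroma and salivary sums of KO overlapped those of WT. The macrophage sum was 1587 to 1621 in KO, against 1634 to 1836 in WT, and the muscle sum was 3342 to 3348 in KO, against 1826 to 3176 in WT, both without overlap. The Gapdh ratio was 1.07 and 0.970 in KO, against 0.851 and 0.890 in WT. The beta-actin ratio overlapped, at 1.426 and 1.238 in KO, against 1.334 and 1.428 in WT. The part of these sums and ratios in the Fos difference was not tested.

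**Figure D4:**
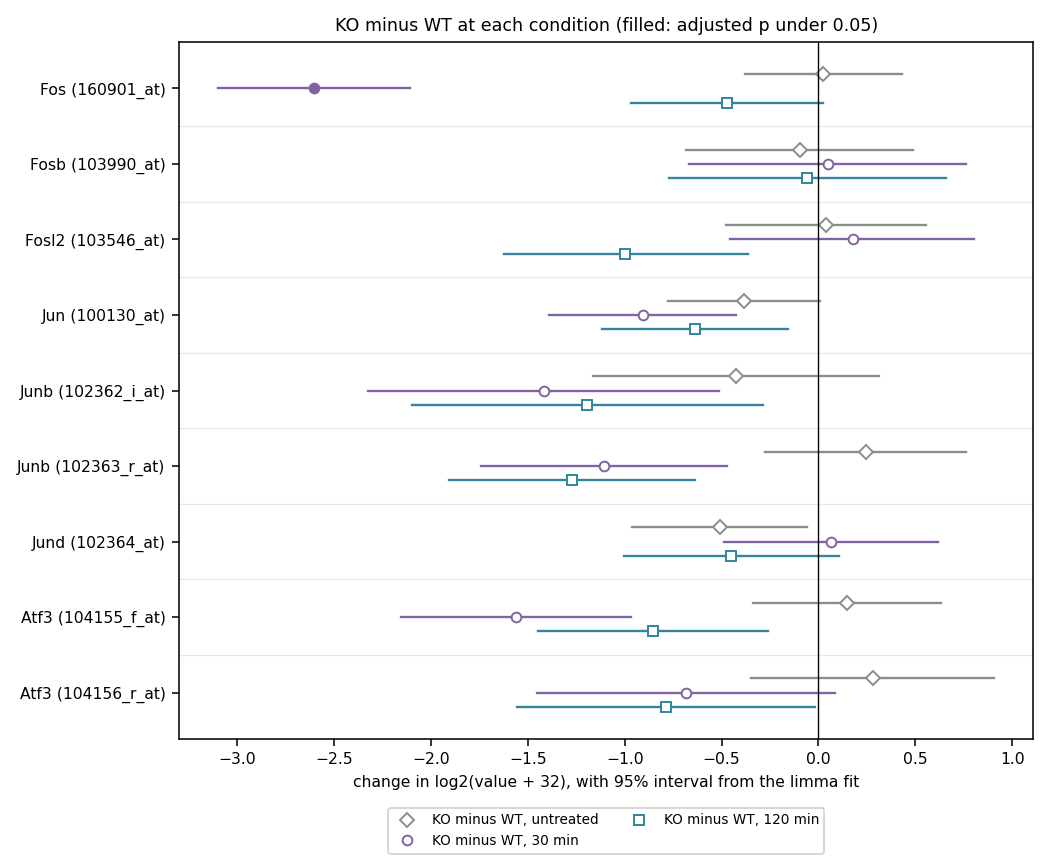
Difference of KO minus WT in log2(intensity + 32) for the 9 tested probe sets, with 95% intervals from the limma fit, untreated (diamonds), at 30 min (circles) and at 120 min (squares). The filled circle, Fos at 30 min (-2.60), is the value that passed an adjusted p of 0.05, and at 120 min every estimate lies below 0.

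Without radiation no member was called between the genotypes (0% of all tested probe sets, and 487 at an unadjusted limma p under 0.05). Without untreated KO B, 7 of 8851 probe sets were called, none of them a member. The Fos difference was 0.02 (95% interval -0.38 to 0.43). Every KO array lay below every WT array for Jun and Jund, 2 of 9 members, against 5.1% of all tested probe sets. The Jund groups overlapped in the deposited values before quantile normalization. The log2 differences were -0.39 ± 0.18 for Jun and -0.51 ± 0.21 for Jund (limma adjusted p = 0.923 and 0.905). Untreated KO and WT did not overlap in the sums of T cells (486 to 582 in KO, against 685 to 738 in WT), stroma and endothelium (897 to 1242, against 770 to 881) and muscle (3231 to 9938, against 1134 to 2815). All 10 muscle genes were higher in untreated KO at an unadjusted limma p under 0.05, and the part of these sums in the Jun and Jund values was not tested.

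At 120 min no member was called between the genotypes either, where 0.258% of all tested probe sets were. Both KO arrays lay below both WT arrays for 8 of 9 members, Fosb being the exception, against 20.9% of all tested probe sets. The median difference of the 9 was -0.79, beside -0.00 over all. An unadjusted limma p under 0.05 was reached by 6 of the 9 members and by 643 of the 8916 probe sets. The largest differences were -1.27 ± 0.29 for Junb 102363_r_at (adjusted p = 0.135), -1.19 ± 0.42 for Junb 102362_i_at (adjusted p = 0.472) and -1.0 ± 0.29 for Fosl2 (adjusted p = 0.335). All 6 marker sums stood apart between the genotypes at 120 min without overlap. The B cell sum was 1662 to 2280 in KO, against 633 to 926 in WT, the T cell sum 576 to 691, against 352 to 449, and the stroma sum 851 to 1099, against 591 to 598. The salivary sum was 50590 to 52299 in KO, against 38766 to 44681 in WT. In the limma fit on quantile normalized values its 5 genes had a median log2 difference of 0.041. The macrophage sum was 1757 to 2329 in KO, against 2493 to 2575 in WT. In the limma fit, however, the 7 macrophage genes had a median log2 difference of 0.352. Of them 1 was called lower in KO, and the sum does not speak for the whole list. The muscle sum was 803 to 3063, against 3280 to 3414. The part of these sums in the member values was not tested.

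Whether the response itself differed was tested as the KO change minus the WT change, which reuses the arrays of the comparisons above. At 30 min Fos was called, at -2.63 ± 0.30 (95% interval -3.27 to -1.99, limma adjusted p = 0.00388), the 1 of 9 members where 0.0785% of all tested probe sets passed. Without the 3 arrays of lowest correlation with the others (KO 30 min A, untreated WT A and KO 120 min A) it missed the threshold (adjusted p = 0.055). The next members were Atf3 104155_f_at at -1.71 ± 0.35 (adjusted p = 0.267) and Junb 102363_r_at at -1.35 ± 0.38 (adjusted p = 0.733). At 120 min no member was called, against 0.135% of all tested probe sets. There the values with the smallest p were -1.51 ± 0.38 for Junb 102363_r_at (adjusted p = 0.292), -1.0 ± 0.35 for Atf3 104155_f_at (adjusted p = 0.565) and -1.04 ± 0.38 for Fosl2 (adjusted p = 0.581).

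Lists of pathway genes around AP-1 were followed in the same fit, with 1 probe set a gene. They were other bZIP proteins that can partner or compete with AP-1 (16 tested of 24 listed), MAP kinases and their upstream kinases (20 of 34), serum response and ternary complex factors (5 of 9) and AP-1 target genes (17 of 36). In WT at 30 min 0 of these genes were called in either direction, while Fos rose. The smallest p belonged to Map3k8, a kinase that activates the ERK pathway (log2 change 0.64 ± 0.23, limma adjusted p = 0.851), Gadd45a, a stress-induced growth arrest gene (0.85 ± 0.32, adjusted p = 0.923), and Nfil3, a bZIP repressor (-0.80 ± 0.34, adjusted p = 0.96). The 5 tested serum response and ternary complex factors had a median change of -0.07, beside 0.00 over all probe sets.

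In WT at 120 min 1 gene of the lists was called, 1 of the 17 tested targets, where 0.505% of all tested probe sets were called. It was Sprr1a, a target of AP-1 that encodes a protein of the cornified envelope and rises in stressed epithelia and neurons. Its intensities in KO were 52.0, 27.1 and 15.5 untreated, 17.9 and 44.4 at 30 min, and 44.4 and 22.3 after 120 min. The WT values were 36.5, 19.1 and 9.8 untreated, 26.9 and 8.0 at 30 min, and 187.0 and 127.7 after 120 min. Both WT arrays at 120 min lay above all others. The log2 change in WT was 1.85 ± 0.31 (limma adjusted p = 0.018). Under a stricter filter, above the median on 5 arrays, Sprr1a was not tested. The call was lost without untreated WT B (adjusted p = 0.0661), untreated WT C (0.0552), WT 120 min A (0.269) or WT 120 min B (0.0957). The Sprr1a difference of KO minus WT at 120 min was -1.56 ± 0.34 (adjusted p = 0.111). The median change of the 17 tested targets in WT at 120 min was 0.18, that of the 16 bZIP partners was 0.14 and that of the 20 kinases was 0.09, beside -0.01 over all probe sets.

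In KO 0 genes of the lists were called at either time. At 30 min the smallest p belonged to Ddit3, a stress-induced bZIP protein (0.84 ± 0.29, limma adjusted p = 0.459), Nfe2l1, a cap'n'collar bZIP factor (0.37 ± 0.17, adjusted p = 0.59), and Elk3, a ternary complex factor (-0.49 ± 0.23, adjusted p = 0.59). At 120 min it belonged to Atf5, an ATF protein of the stress response (0.81 ± 0.19, adjusted p = 0.488), Map3k8 (0.67 ± 0.23, adjusted p = 0.606) and Ddit3 (0.75 ± 0.29, adjusted p = 0.655).

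The genes whose profile over the 14 arrays was most like that of Fos were ranked by Pearson's r of the normalized log2 values, given as a description with no test. They were Egr1, an immediate-early zinc finger factor (r = 0.918), Ier2, an immediate-early gene (0.915), Dusp1, a phosphatase of MAP kinases (0.894), Ier3, a stress-inducible early gene (0.883), and Zfp36, which promotes mRNA decay (0.883). Spearman's rho for these genes was 0.631, 0.657, 0.604, 0.771 and 0.626. Without the WT arrays at 30 min, which lie farthest from the median of Fos, r was 0.462, 0.383, 0.626, 0.733 and 0.498. The likeness to Fos thus rests in large part on those arrays for Egr1, Ier2 and Zfp36.

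For Junb 102362_i_at the most alike genes were Tgif1, a homeodomain repressor (r = 0.922), S100a13, a calcium-binding protein (0.893), E2f5, a member of the E2F family (0.882), Krr1, a ribosome biogenesis factor (0.876), and Stx7, a syntaxin of endosomes (0.873). Spearman's rho was between 0.815 and 0.947. Without untreated KO B and WT 120 min B, the arrays farthest from the median of Junb, r was 0.870, 0.833, 0.811, 0.881 and 0.838, so this likeness did not rest on them. None of the 5 genes nearest to Fos was among the 5 nearest to Junb. Lists this short, taken from the 6527 genes of the tested probe sets, would seldom share a gene, so nothing is read from this.

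**Figure D5:**
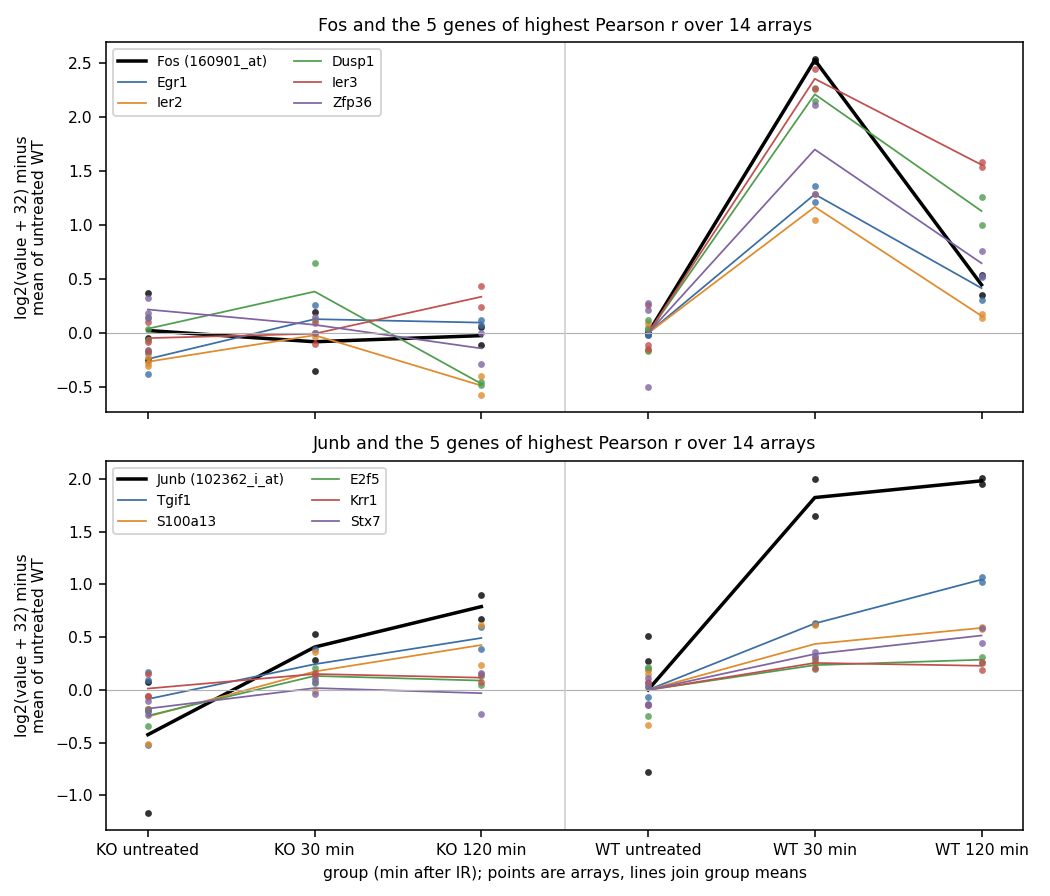
Normalized log2(intensity + 32) minus the mean of untreated WT, for Fos and its 5 most alike genes (top) and for Junb 102362_i_at and its 5 most alike genes (bottom). Points are the 14 arrays, lines join the group means over time in KO (left) and WT (right), and the Fos line stands at 2.52 in WT at 30 min.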

How the data were processed

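The authors deposited linear intensities, 1 for each probe set of an array. The sources used here do not give the software behind them. The trimmed mean of each array was 150.1 on all 14 arrays, so the deposited intensities had already been scaled to a common target. Array medians lay between 61.0 and 80.4, and no 2 arrays were identical (0 pairs). Groups came from the titles. After 66 control probe sets were dropped, log2(value + 32) was computed from the deposited intensities and quantile normalized. The probe sets tested exceeded the 40th percentile of their array on at least 2 arrays (8916 of 12422). A model of 6 group means on all 14 arrays was fitted with limma 3.58.1 in R 4.3.3, with 11 contrasts and Benjamini-Hochberg adjustment over all tested probe sets. It was tested on simulated data. Gene names came from the platform annotation updated by Entrez ID. Named were all members, pathway genes called in a response to radiation or, where none was called, those with the 3 smallest p, and the 5 most alike genes per called member. Members, lists and tests were chosen with earlier results of these data known. Alternatives comprised 10 other settings and leaving out each array in turn. The number of arrays limits the precision.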

Additional observations from a re-analysis of the deposited data

Results flagged for a closer look

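The Fos response at 30 min after IR differed between the genotypes by the test of that difference: the KO change minus the WT change was -2.63 on the log2(intensity + 32) scale (probe set 160901_at, 95% interval -3.27 to -1.99, limma adjusted p = 0.00388). The KO arrays at 30 min overlapped those of untreated KO, while both WT arrays at 30 min stood above every untreated WT array. No explanation of this difference was tested.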

How the results depend on the processing

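The counts below are member probe sets called of 9 tested, and 1 was called in each of the comparisons named. With a stricter filter, above the median on 5 arrays, the count was 0 for WT at 30 min, for WT 120 against 30 min, for KO against WT at 30 min and for the difference of responses at 30 min, because Fos was then not tested. For WT at 120 min it was 0 with an offset of 16, 0 without a filter, 0 with only the groups compared, and 2 with an offset of 64 or an intensity trend, both Junb probe sets. With the 3 arrays of lowest correlation left out it stayed at 1, but 102363_r_at passed and 102362_i_at did not (adjusted p = 0.139). Fitting only the groups compared also gave 0 for WT 120 against 30 min and 0 for KO against WT at 30 min (Fos adjusted p = 0.0551 and 0.116). The count for KO against WT at 30 min was 2 with deposited scaling, an offset of 64 or an intensity trend, adding Atf3 104155_f_at. Without the 3 arrays of lowest correlation, 0 members were called in the difference of responses at 30 min (Fos adjusted p = 0.055). Leaving out 1 array at a time gave counts of 0 to 1 for WT at 120 min and for WT 120 against 30 min, 1 to 2 for KO against WT at 30 min, and 1 for WT at 30 min and for the difference of responses at 30 min. In the other 6 comparisons (KO at 30 min, at 120 min and between these times, KO against WT untreated and at 120 min, and the difference of responses at 120 min) the count was 0 under every alternative. The Fos change in WT at 30 min was called in the 9 other settings that tested it and in all 14 fits without 1 array, with values of 2.13 to 3.19.

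Deviations of same-letter samples from their group means correlated between -0.121 and 0.085 over 31 pairs. Those of samples with other letters correlated between -0.117 and 0.121 over 50 pairs. In a group of 2 the deviations mirror each other, so many pairs repeat. These values cannot decide whether a letter marks a shared batch. With the letter as a replicate block, the count for WT at 120 min was 0 (Junb adjusted p = 0.054), and no other count changed. With 2 or 3 arrays a group, the median SE was 0.232 for a response, 0.254 between irradiated groups and 0.328 for a difference of responses. Changes near these values cannot be resolved. Changes several times their SE also went uncalled, such as 1.34 ± 0.25 for Atf3 104155_f_at in WT at 30 min (limma adjusted p = 0.119). No scaling moved the median of all probe sets by more than 0.03.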

Other observations

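Among the bZIP partners and kinases, 3 genes that were higher in WT at 120 min but not called were named after their values were seen. Nfe2l1, a cap'n'collar bZIP factor that drives proteasome genes, read 533.4, 477.0 and 461.9 in untreated WT, 457.0 and 488.9 at 30 min, and 904.3 and 934.9 after 120 min, the highest values of all 14 arrays. Its log2 change at 120 min was 0.31 ± 0.17 in KO (limma adjusted p = 0.745) and 0.84 ± 0.17 in WT (adjusted p = 0.0549). Nfe2l2, the regulator of the oxidative stress response, read 548.2 and 526.9 in WT at 120 min, against 262.9 to 309.4 in untreated WT. Its log2 change in WT was 0.79 ± 0.21 (limma adjusted p = 0.208). In KO Nfe2l2 read 361.9 and 305.2 at 120 min, against 283.5, 262.3 and 264.6 untreated, also without overlap. In KO at 120 min Map3k8 read 82.8 and 72.3, against 34.5 to 39.5 in untreated KO. Map3k8 read 94.8 and 102.8 in WT at 120 min, against 15.5 to 49.8 in untreated WT, with a change of 1.04 ± 0.23 (adjusted p = 0.0778). The difference of the Map3k8 responses, KO minus WT, was -0.37 ± 0.32 (adjusted p = 0.897). None of these changes passed the test.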
